A study of Mus musculus with 2 samples.

Results

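The IQGAP family of scaffold proteins is described here in a mouse podocyte line, from the 11 probe sets that a deposited table of small GTPase regulators assigns to Iqgap1 (7), Iqgap2 (2) and Iqgap3 (2), out of 374 probe sets in that table. Podocytes are epithelial cells that wrap the capillaries of the kidney glomerulus with interlocking foot processes. The line was derived from a wildtype mouse that carries the Immorto transgene, which supplies a temperature-sensitive large T antigen under an interferon-inducible promoter. Undifferentiated cells were kept on collagen I at 33 °C and received interferon gamma. Differentiated cells had been grown at 33 °C in 10% serum with 100 U/ml interferon gamma, then held at 37 °C without it in 5% serum for no less than 10 days, by which point the labels call them growth arrested. Temperature, interferon gamma and time in culture thus differ together. The serum of the undifferentiated cells is not given in the labels, so serum may differ as well. RNA was isolated with a Qiagen kit from undifferentiated and an Ambion kit from differentiated cells. The parts of these factors cannot be told apart. Each group had 1 array of 1 line, and the differences below therefore come without replicates or p-values. Errors are the deposited standard errors of each signal, called model SE here and read as an error over the probes of 1 array. In RNA of whole cultures, fewer expressing cells and less RNA per cell cannot be told apart.

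IQGAP proteins join the actin cytoskeleton to small GTPases. A calponin homology domain binds actin, IQ motifs bind calmodulin, and a GAP-related domain binds active Cdc42 and Rac without speeding up their GTP hydrolysis, so the name GAP describes the sequence and not the activity. Iqgap1 is widely expressed, works at cell junctions and the leading edge, and its protein has been found with nephrin at the slit diaphragm of podocytes. Iqgap2 is best known from liver, and Iqgap3 from proliferating cells.

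The genes lie on different chromosomes of the assembly GRCm38.p6: Iqgap3 at chr3:88082002-88121048, Iqgap1 at chr7:80711583-80815549 and Iqgap2 at chr13:95627177-95892280. RefSeq promoter windows of 300 bases, 250 before and 50 after an annotated start, were found for all 3. Those of Iqgap3 and Iqgap1 are shown because their bright probe sets differed in opposite directions in that table as deposited. The Iqgap3 window (chr3:88081801-88082100, plus strand) has GGCGG and, 4 bases on, TTCAAA in capitals. TTCAAA is TTTGAA read on the other strand, the sequence known as the cell cycle homology region of many mitotic genes. In some of them a GC-rich element lies 4 bases before TTTGAA. The Iqgap3 order differs: on the strand that reads TTTGAA, the GC-rich stretch comes after it. The Iqgap1 window (chr7:80803282-80803581, minus strand) has in capitals ATTGG, the reverse complement of the CCAAT box, and lies inside the annotated span of the gene, at a start other than the outermost one.
Iqgap3: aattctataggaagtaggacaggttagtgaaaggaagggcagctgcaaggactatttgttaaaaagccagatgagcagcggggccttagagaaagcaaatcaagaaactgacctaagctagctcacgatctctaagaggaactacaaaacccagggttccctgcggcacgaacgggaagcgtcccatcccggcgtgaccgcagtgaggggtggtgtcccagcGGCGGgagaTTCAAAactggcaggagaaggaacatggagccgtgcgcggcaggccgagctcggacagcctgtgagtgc
Iqgap1: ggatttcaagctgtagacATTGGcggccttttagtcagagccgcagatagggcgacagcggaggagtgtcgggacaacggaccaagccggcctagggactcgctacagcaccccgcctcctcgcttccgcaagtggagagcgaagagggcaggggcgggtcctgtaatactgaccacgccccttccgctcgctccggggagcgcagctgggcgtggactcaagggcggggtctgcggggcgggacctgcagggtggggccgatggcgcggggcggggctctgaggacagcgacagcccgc

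TTCAAA in the Iqgap3 window starts at position -19 from the annotated start used. As for Iqgap1, that start is not the outermost one, and TTCAAA lies inside the annotated span of the gene. TTTGAA on either strand was found in 17.9% of 32851 such windows of 27025 mouse genes, and not in the Iqgap1 or Iqgap2 window. The spaced form GGCGGNNNNTTCAAA, looked for after the Iqgap3 sequence had been read, was found on either strand in 4 of the 32851 windows, Iqgap3 among them, and GGCGGNNNNTTTGAA in 12. Both spaced forms contain the shorter motif. CCAAT was found on either strand in 37.4% of windows. TTCGAA (1.56%) and the E2F-type sequences TTTCCCGC (1.07%), TTTCGCGC (0.323%), TTTGCCGC (0.441%) and TTTGGCGC (0.514%) were in none of the 3 IQGAP windows. These matches describe letters in a window and were not linked to binding.

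The signals come from 2 deposited tables that share the undifferentiated array. They are the table of GTPase regulators, called the GAP and GEF table, and the value table of the whole array. Their undifferentiated columns match within 0.005 units for 374 of 374 probe sets and their differentiated columns for 0 of 374. No source used here says where the GAP and GEF table's differentiated column comes from, so both are reported. The 95th percentile of signals called absent was 51.5 units in undifferentiated and 68.3 in differentiated cells of the GAP and GEF table. In the value table the ratio of 3′ to 5′ signal of the Gapdh control was 0.868 on the undifferentiated and 3.77 on the differentiated array, and that of beta-actin 1.09 and 1.54. Its part in the differences below was not tested. No podocyte marker or marker of another kidney cell or leukocyte is among the named probe sets, so the cell type was not checked against its markers here.

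**Figure D1:**
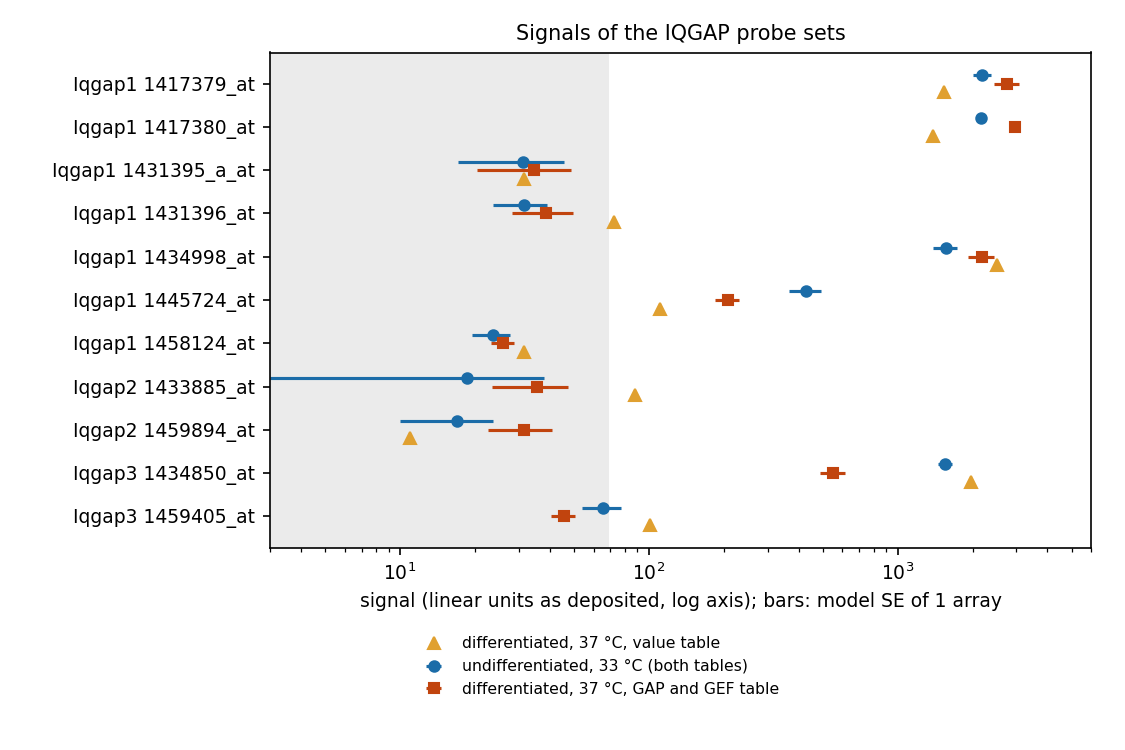
Signal of each IQGAP probe set on a log axis, in undifferentiated cells (circles), in differentiated cells of the GAP and GEF table (squares) and in differentiated cells of the value table (triangles). Bars are model SE of 1 array, the value table has none, and the bar of Iqgap2 1433885_at runs below the axis. Grey marks signals under 68.3 units; 3 Iqgap1 probe sets and Iqgap3 1434850_at lie at 551 or above in every column.

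Iqgap3 was the family member with the largest difference in the GAP and GEF table. Its probe set 1434850_at read 1556 ± 102 (model SE) in undifferentiated and 551 ± 61.4 in differentiated cells, 2.83-fold lower, and was called present in both. The log2 difference was -1.50 ± 0.19. Among 157 measured genes it ranked 7 from the lowest; 10 genes (6.37%) were down by 2-fold or more and 29 (18.5%) up by as much. A gene was measured where a probe set was called present in 1 or both groups.

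The second Iqgap3 probe set, 1459405_at, was dim. It read 65.6 ± 11.5 in undifferentiated and 45.4 ± 5.10 in differentiated cells, 1.44-fold lower, with a log2 difference of -0.53 ± 0.30. It was called present in both groups, but its differentiated signal lay under the 95th percentile of absent-called signals. Both Iqgap3 probe sets thus pointed to less signal at 37 °C in this table, the brighter by more than 2 model SE and the dimmer by less.

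Iqgap3 did not show this in the value table, whose differentiated array read 1971 for 1434850_at, 3.58 times the 551 of the GAP and GEF table, and 101 for 1459405_at, 2.22 times the 45.4. After quantile normalization the log2 differences were 0.60 and 0.16, both above 0 and under 2-fold. Of all measured probe sets of the array, 69.9% had a lower difference than 1434850_at. Setting the arrays' medians equal turned 1434850_at to -0.21 there, so its direction in that table also depended on scaling. The same probe set stayed between -1.45 and -2.16 in the GAP and GEF table under every scaling, floor and pseudocount tried.

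Iqgap1 was represented by 3 bright probe sets, each called present in both groups and each somewhat higher in differentiated cells of the GAP and GEF table. The probe sets 1417379_at and 1417380_at were designed on the RefSeq transcript, and the others of the gene on sequences without a RefSeq transcript number. The first read 2185 ± 186 and 2756 ± 312, a log2 difference of 0.33 ± 0.20. For 1417380_at the signals were 2170 ± 89.2 and 2961 ± 125, errors of 4.11% and 4.21% of the signal, with a difference of 0.45 ± 0.08. For 1434998_at they were 1559 ± 178 and 2176 ± 263, and the difference was 0.48 ± 0.24.
The 3 differences had a mean of 0.42 and an SD of 0.08 over probe sets, which share the same RNA. They correspond to folds between 1.26 and 1.40. With 75th percentiles set equal the values were 0.08, 0.19 and 0.22, and after quantile normalization 0, 0.13 and 0.13. Of the scalings tried, only equal medians turned the direction, to -0.33, -0.21 and -0.18. The median of all measured genes was 0.18 as deposited and -0.49 with equal medians.

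The bright Iqgap1 probe sets parted in the value table. The differentiated array read 1533 for 1417379_at and 1387 for 1417380_at, below the undifferentiated 2185 and 2170, but 2497 for 1434998_at, above 1559. The normalized log2 differences were -0.24, -0.38 and 0.94. The pair on the RefSeq transcript thus lay on the same side of 0 within each table, below it here and above it in the GAP and GEF table, and 1434998_at was higher in both.

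Another detected Iqgap1 probe set, 1445724_at, was lower in both tables. It read 429 ± 63.0 in undifferentiated and 207 ± 23.5 in differentiated cells of the GAP and GEF table, 2.07-fold lower, with a log2 difference of -1.05 ± 0.27. On the differentiated array of the value table it read 110, and the normalized difference was -2.10, or 4.28-fold lower. It was the only IQGAP probe set at least 2-fold lower in both tables, and both share the undifferentiated signal of 429. Its target is placed in a sequence cluster other than that of the RefSeq-based probe sets, as is that of 1434998_at, which was higher in both. Where 1445724_at lies in the gene was not analysed here. Its log2 difference minus that of 1417380_at was -1.50 ± 0.28, a gap between probe sets of a single gene that a common scaling factor cannot alter.

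The remaining 3 Iqgap1 probe sets were near background. For 1431395_a_at the signals were 31.3 ± 14.2 and 34.4 ± 14.1, for 1458124_at 23.6 ± 4.15 and 25.9 ± 2.74, and for 1431396_at, absent in both groups, 31.4 ± 7.77 and 38.7 ± 10.6. All 6 signals lay under the 95th percentile of absent-called signals, and no difference exceeded 1 model SE. On the differentiated array of the value table they read 31.6, 31.6 and 72.3.

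Iqgap2 was hardly detected. Its probe sets read 18.6 ± 19.3 (1433885_at) and 16.9 ± 6.85 (1459894_at) in undifferentiated cells, both called absent, and 35.5 ± 12 and 31.6 ± 9.14 in differentiated cells, both called present. All 4 signals were under the 95th percentile of absent-called signals. The log2 differences, 0.93 ± 1.58 and 0.90 ± 0.72, were within 2 model SE, and rest partly on undetected signals. The value table gave 88.1 and 10.9 in differentiated cells, the first above and the second below its undifferentiated signal. After normalization 1459894_at was at the floor of 37.6 units in both groups, and the difference of 1433885_at, 0.98, is against the floor.

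**Figure D2:**
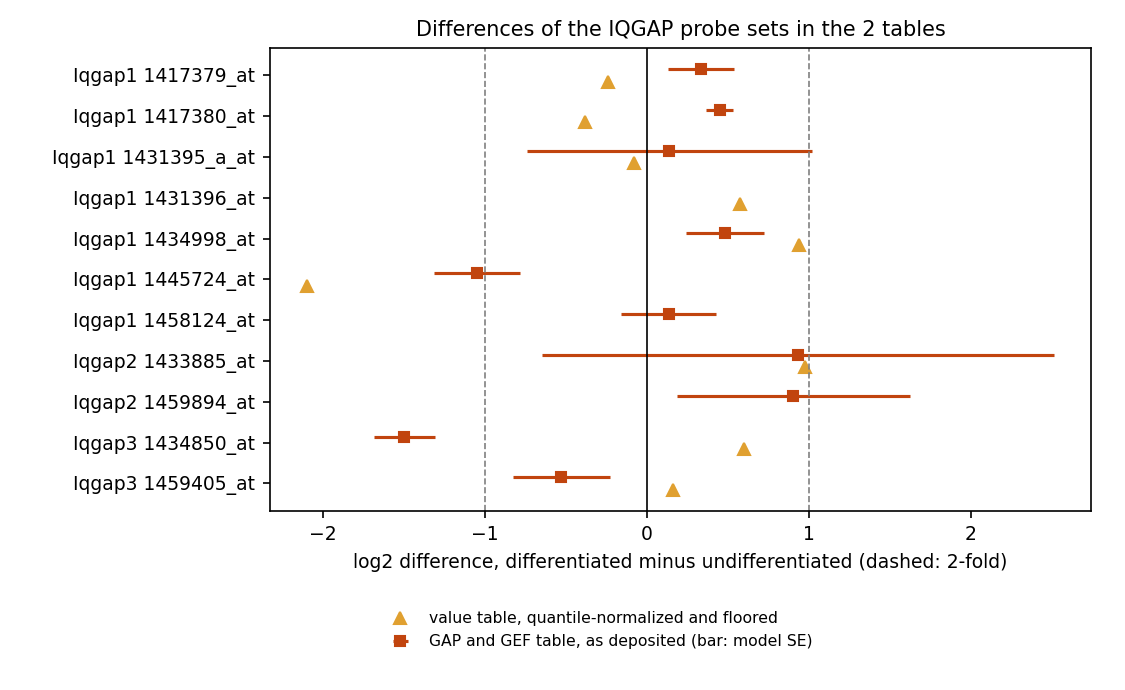
Log2 difference, differentiated minus undifferentiated, of each IQGAP probe set in the GAP and GEF table (squares, bars are model SE) and in the value table after quantile normalization and flooring (triangles). Probe sets absent in both groups or at the floor in both have no symbol for that table; dashed lines mark 2-fold, passed on the low side by 1445724_at in both tables and by Iqgap3 1434850_at in the GAP and GEF table.

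Counted over the family, 2 of 10 IQGAP probe sets called present in 1 or both groups were 2-fold or more lower in the GAP and GEF table, beside 7.67% of all 313 such probe sets, and 0 were higher by as much, beside 17.9%. The 2 are Iqgap3 1434850_at and Iqgap1 1445724_at. Differences of 4 of the 10, as deposited, exceeded 2 model SE, beside 50.5% of the 313: these 2 and Iqgap1 1417380_at and 1434998_at. The last lay at the cut, at 2.004 model SE, and its difference fell to 0.22 with 75th percentiles set equal. Of 9 IQGAP probe sets measured in the value table, 1 was 2-fold or more lower, beside 22.0% of 31831, and 0 were higher by as much, beside 21.1%. Signs were compared between the GAP and GEF table as deposited and the value table after quantile normalization and flooring. Among the 8 measured in both tables, 5 had opposite signs, beside 46.7% of 272. The 5 include Iqgap1 1431395_a_at, which was near background and near 0 in both, at 0.14 ± 0.88 and -0.08. The 2 differentiated columns were at least 2-fold apart, as deposited, for 5 of the 11, beside 54.3% of 374. Disagreement between the tables was thus common throughout the GAP and GEF table, and these counts are not read as particular to the IQGAP family.

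The gap between Iqgap3 and Iqgap1 is free of any common scaling factor. The log2 difference of Iqgap3 1434850_at in the GAP and GEF table lay below those of the bright Iqgap1 probe sets, by a gap of -1.83 ± 0.28 to 1417379_at, -1.95 ± 0.20 to 1417380_at and -1.98 ± 0.30 to 1434998_at. Relative to these bright probe sets, Iqgap3 signal was thus 3.56-fold to 3.94-fold lower after differentiation. Against the lower Iqgap1 probe set 1445724_at the gap was -0.45 ± 0.33, within 2 model SE. As deposited in the value table, the gaps to the bright probe sets were 0.85, 0.99 and -0.34, and that to 1445724_at was 2.30, so the order turned against 1417379_at, 1417380_at and 1445724_at and did not against 1434998_at.

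Genes were compared with Iqgap3 by how close their log2 differences were over the 2 conditions, among 128 other genes present in both groups. The nearest was Rangap1, which activates GTP hydrolysis by Ran in nuclear transport and at the spindle, at -1.51 ± 0.08 (713 and 249.8 signal units). The next were the Rab GAPs Tbc1d1 (-1.36 ± 0.49) and Usp6nl (-1.21 ± 0.27). Rangap1 and Tbc1d1 lay above 0 in the value table, at 0.64 and 0.91, as Iqgap3 did at 0.60, and Usp6nl at -1.07. For Iqgap1 the nearest were Rabgap1l (0.42 ± 0.21), Rgs8 (0.48 ± 0.29, dim in both groups) and Arhgap35 (0.40 ± 0.07). Rabgap1l had 0.23 and Arhgap35 -1.81 in the value table, where Iqgap1 1417380_at had -0.38 and Rgs8 was not measured. The Iqgap2 difference, 0.93 ± 1.58, is too uncertain for a neighbour to be named. With 2 conditions this likeness is that of a single difference.

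Genes of cytokinesis and mitosis were set beside Iqgap3. The list was put together with the results of these arrays known, so its counts and median describe the chosen genes and test nothing. Of 20 listed, 7 were in the GAP and GEF table, all measured and all below 0 there; 5 were down by 2-fold or more, beside 6.37% of all measured genes, and 0 up, beside 18.5%. Of all 157 measured genes 65 (41.4%) were below 0. The list had a median log2 difference of -2.10 beside 0.18 for all measured genes. Racgap1, the GAP subunit of centralspindlin at the cleavage furrow, read 2182 and 509 (-2.10 ± 0.28). Arhgap19, a RhoA GAP of mitosis, read 522 and 89.1 (-2.55 ± 0.39), and Depdc1a, a mitotic protein, 1475 and 298 (-2.31 ± 0.09). Depdc1b had -2.67 ± 1.41, from a differentiated signal of 15.1 that is under the 95th percentile of absent-called signals. Rangap1 was the fifth. Ranbp1, a partner of Ran (-0.28 ± 0.10), and Arhgap11a, a RhoA GAP of dividing cells (-0.23 ± 0.07), were within 2-fold. Iqgap3 at -1.50 lay between Rangap1 and Ranbp1. All 7 stayed below 0 under each scaling, floor and pseudocount tried in this table.

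The same probe sets had no common direction in the value table. Their median was 0.0014, with 0 of 7 lower by 2-fold or more, beside 26.6% of 139 genes, and 2 higher by as much, beside 15.1%. The 2 were Depdc1b (3.79, from 96.2 to 1379 signal units) and Arhgap11a (1.04, from 2270 to 3818). Racgap1 had -0.43, Depdc1a -0.25 and Arhgap19 0.0014. Equal medians in place of quantile normalization moved the list's median to -0.72, with 3 lower and 1 higher. The low level of this group at 37 °C, like that of Iqgap3, was thus found in the GAP and GEF table and, after quantile normalization, not in the value table.

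RefSeq promoter windows were found for 6 of these 7 genes, and all 6 hold TTTGAA on either strand, as the Iqgap3 window does, beside 17.9% of all windows. CCAAT is on either strand in 5 of the 6, all but Rangap1, and not in the Iqgap3 window. The matches are shown, with 10 bases on each side and TTTGAA in capitals, to let the Iqgap3 site be read beside them. Each is read 5′ to 3′ on the strand that carries TTTGAA.
Iqgap3: tcctgccagtTTTGAAtctcccgccg
Racgap1: ggtgcgtgatTTTGAAccggatctgg
Arhgap11a: gggtcctcatTTTGAAaacaggagcg
Arhgap19: cagttagataTTTGAAtagaccaata
Depdc1a: gcgctgctgaTTTGAAtatctccgag
Rangap1: gaggaggattTTTGAAagccggcagt
Ranbp1: ctacactggtTTTGAAtcactgcgcg
The motif starts at -19 in Iqgap3, -16 in Depdc1a, -53 in Ranbp1, -95 in Arhgap19 and -99 in Arhgap11a, before the annotated start used. It starts at 6 in Racgap1 and 17 in Rangap1, after that start. For Iqgap3 the start used is not the outermost one of the gene. The list was put together with the results of these arrays known, the motif was looked for after the Iqgap3 window was read, and Ranbp1 and Arhgap11a hold it while within 2-fold.

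Regulators of Rac and Cdc42, the GTPases that IQGAP proteins bind, were spread on both sides of 0 in the GAP and GEF table as deposited. Of 17 GAPs for them in the GAP and GEF table, all measured, 4 were 2-fold or more higher in differentiated cells, beside 18.5% of all measured genes, and 1, Racgap1, lower by as much, beside 6.37%, with a median of -0.01. The higher ones were the Rac GAP Arhgap24 (4.18 ± 0.15), the Slit-Robo GAPs Srgap3 (3.40 ± 0.23) and Srgap2 (1.10 ± 0.19), and the chimaerin Chn2 (2.03 ± 0.26). Nearest 0 were Arhgap33 (-0.01 ± 0.15) and Bcr (-0.03 ± 0.10). As deposited, 9 of the 17 were below 0, beside 41.4% of all measured genes. With equal medians 13 were, and the list's median was -0.67 beside -0.49 for all measured genes. Of 15 measured in the value table, 8 were 2-fold or more lower, beside 26.6% of the 139 genes, and 4 higher, beside 15.1%, with a median of -1.36 beside -0.16 for all of them. The higher ones there were Arhgap24, Srgap3, Chn2 and Arhgap22 (1.84), while Srgap2 had -0.35. The 1 GEF listed that was found, Tiam2 of Rac, had -0.94 ± 0.10 in the GAP and GEF table as deposited. Its difference there passed 2-fold with equal medians (-1.60), equal 75th percentiles (-1.20) and quantile normalization (-1.26). In the value table it was -2.94, from 287.6 to 17.8 signal units, with the differentiated signal raised to the floor.

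Proteins that share the RasGAP fold with IQGAPs were also looked at. Of 11 listed, 10 were in the GAP and GEF table and 8 measured. Of these, 5 were within 2-fold, beside 118 of all 157 measured genes. Another 3 were 2-fold or more higher, beside 18.5%, and 0 were lower by as much, beside 6.37%. The median was 0.10, or -0.56 with equal medians. Each of quantile normalization, equal 75th percentiles and equal medians took the count of 3 to 1. The 3 were the Ras GAPs Rasa3 (1.77 ± 0.22), Dab2ip (1.24 ± 0.09) and Rasal2 (1.07 ± 0.16). The neurofibromatosis gene Nf1 had -0.31 ± 0.14 and Gapvd1, a GAP and GEF at endosomes, -0.41 ± 0.21. Of 8 measured in the value table, Rasa4 (-2.03) and Dab2ip (-1.54) were 2-fold or more lower, beside 26.6% of the 139 genes. The count higher by as much was 0, beside 15.1%. None of 24 listed binding partners of IQGAP proteins, such as Cdc42, calmodulin and beta-catenin, is among the named probe sets.

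**Figure D3:**
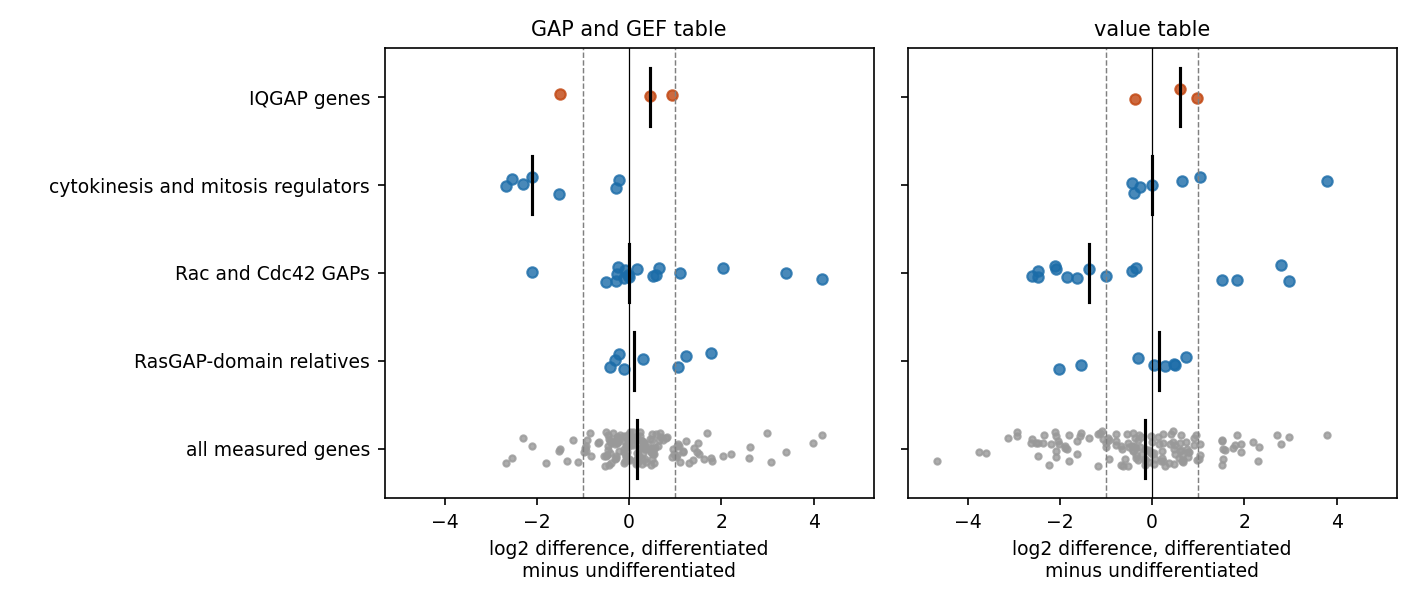
Log2 difference of each gene, differentiated minus undifferentiated, in the GAP and GEF table (left) and for the same probe sets in the value table (right), with 1 dot per gene, a black bar at each median and dashed lines at 2-fold. The 7 cytokinesis and mitosis genes lie below 0 on the left with a median of -2.10, and on both sides of 0 on the right; the IQGAP dot near -1.50 on the left is Iqgap3.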

How the data were processed

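RNA of each group was hybridised to an Affymetrix mouse array (430v2), and dChip analysis is mentioned for the differentiated cells, per the labels' protocols. The authors deposited linear intensity values in both tables, and in the GAP and GEF table also present, marginal or absent calls and standard errors. No source used here states how arrays were scaled. From these, log2 differences were taken as deposited in the GAP and GEF table, with the error propagated from both standard errors. In the value table signals were raised to 1, log2 was taken, arrays were quantile-normalized and the 40th percentile (37.6 units) was the floor. Each gene had its brightest present probe set; 8 probe sets of several genes were left out, and 167 of 168 gene IDs matched RefSeq. The threshold was 2-fold. Members and lists were chosen with earlier results of these data known. All IQGAP probe sets, the 3 nearest genes to Iqgap1 and Iqgap3 and list members past 2-fold or nearest 0 are named; the rule also asked for those nearest to Iqgap2, left out for its error. Numbers of arrays limit the precision. Python 3.11.15, numpy 2.4.6 and pandas 2.3.3 were used, and the code was tested on simulated data.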

Additional observations from a re-analysis of the deposited data

How the results depend on the processing

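No paired analysis was possible because each group has 1 array. In the GAP and GEF table the count of IQGAP probe sets at least 2-fold lower, 2, became 1 with a pseudocount of 32, which took Iqgap1 1445724_at to -0.95, and 3 with equal medians, where Iqgap3 1459405_at was at -1.19. It became 1 with the value table's differentiated column, either quantile-normalized and floored as there or, an alternative chosen after seeing the data, as deposited. The count at least 2-fold higher, 0, became 2 at a 1.5-fold threshold, both Iqgap2, and 1, Iqgap2 1433885_at, with that column as deposited. In the value table the lower count, 1, became 3 with equal medians and 2 with no floor, and the higher count, 0, became 1 as deposited, 1 with equal 75th percentiles, 1 with no floor and 3 at a 1.5-fold threshold. Over all measured genes of the GAP and GEF table, 10 lower genes became 34 under median centring, 17 when 75th percentiles were equalised and 16 under quantile normalization, and 29 higher genes became 13 under median centring. Apart from the exchange of columns, these follow from the scalings, floors, pseudocount and thresholds themselves. Iqgap3 1434850_at turned from -1.50 to 0.34 with the value table's differentiated column as deposited and to 0.60 with it quantile-normalized and floored; the cause was not tested. The mean over present probe sets was 0.08 for Iqgap1, 0.92 for Iqgap2 and -1.01 for Iqgap3, against 0.45, 0.93 and -1.50.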
